A study of Homo sapiens with 12 samples.

Results

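All-trans retinoic acid (ATRA) and decitabine (DAC) were compared directly in MOLM-13, an established human acute myeloid leukemia line of monocytic type that carries the MLL-AF9 fusion. The comparison used 6 of the 12 RNA-seq libraries of the study, namely ATRA replicates 1 to 3 and DAC replicates 1 to 3, chosen by their labels. The remaining libraries were untreated or received both drugs and did not enter the comparison. ATRA was given at 1 µM in DMSO and DAC at 100 nM in PBS, renewed daily with the medium. By the labels both groups grew in medium with GM-CSF, which the study's methods do not list. Both carry the same 72 h label, but the methods place ATRA on the third day, so that the exposure to ATRA was shorter than to DAC. The submitters' series description calls the triplicates technical, so each p-value measures the spread within 1 experiment in 1 cell line, and solvent and exposure time cannot be told apart from the drug. Without the untreated arm, a difference does not tell which drug moved the gene.

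ATRA is the hormone form of vitamin A. It binds retinoic acid receptors, which sit on DNA as partners of retinoid X receptors, and turns bound corepressor complexes into coactivator complexes. Cells answer by making the enzymes that degrade it, and myeloid cells by maturing. DAC is a cytidine analogue that is built into DNA during replication, traps the DNA methyltransferases and so leaves the daughter strands with less methylation. Genes that methylation keeps silent, among them germline genes, can then be transcribed, and the trapped enzymes are a form of DNA damage.

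The deposited values are read counts per transcript divided by 1 factor per library, called normalised counts here after summing the transcripts of a gene symbol. Reads that fit several transcripts seem to have been left out, so a level is a lower limit for its gene and levels of different genes are not compared. In a gene with several transcripts, a change in the transcripts used could also move its level, which was not tested. The ATRA libraries held 8363702 to 10685348 reads and the DAC libraries 4671214 to 6954604, so low counts are less precise in DAC. The RNA RN7SL1 took 7.84 to 12.8% of the reads in ATRA and 4.84 to 10.5% in DAC, and mitochondrial reads took 1.22 to 1.67% in all 6. Over the tested genes, the median SD between replicates on the log2 scale was 0.20 in ATRA and 0.27 in DAC. On the axis that held 78.2% of the variance, the ATRA libraries lay between 51.9 and 63.8 and the DAC libraries between -59.9 and -57.4. The next axis held 9.23% and set DAC replicate 3 apart from the other DAC libraries, at -37.5 against 17.5 and 21.8. All 15 defining markers of the line passed the filter on low values. Of these FLT3, CD4, HOXA9 and SPI1 were close, CSF1R, ITGAX and MEIS1 were higher in ATRA, LYZ, MPO and CEBPA were higher in DAC, and the other 5 were not called. Of 33 markers of other cell types, 11 passed, 15 of the 22 others were at 0 in all 6 libraries, and no other exceeded 13.1 normalised counts. The summed level of the 33 ran from 2767 to 2906 in ATRA and from 6440 to 7506 in DAC, and PECAM1, which monocytes also carry, made up most of it in DAC (1532, 1408 and 1389 in ATRA and 6153, 5617 and 5505 in DAC). PECAM1, CD3D and ITGA2B were higher in DAC (PECAM1 alone without DAC replicate 1, and not CD3D without DAC replicate 2 or ATRA replicate 2 or 3) and COL1A1 in ATRA, and the part of other cells in the results was not tested.

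A filter asked for 10 or more normalised counts in 3 or more of the 6 libraries and left 10160 protein-coding genes. Of these 2273 (22.4%) differed at an adjusted p under 0.01 (limma on log2 of the normalised count plus 1, Benjamini-Hochberg over all tested genes). Such genes are called here, and all values below are ATRA minus DAC, so that a positive value is higher in ATRA. Calls higher in ATRA numbered 1039 (10.2%) and calls higher in DAC 1234 (12.1%). Counts of calls in the gene lists below are to be read beside these shares. At least a 2-fold change was added to the call for 733 (7.21%) and 854 (8.41%) genes. Differences over 8-fold were called for 176 and 168 genes and over 32-fold for 56 and 35, so that more genes lay at the extreme in ATRA. The DAC libraries were shallower, and the part of depth in this was not tested. The median log2 difference over all tested genes was -0.02. For 4640 genes (45.7%) the libraries of both groups did not overlap, and this held for 2272 of the 2273 called genes. For 1915 genes (18.8%) the 95% interval of the difference lay within 1.5-fold in either direction, which shows them to be close, while 5972 genes were neither called nor shown to be close. In 21 called genes every DAC library had 0 reads, and in 16 every ATRA library had 0 reads. For these a lower bound of the fold is given, computed against 3 reads in the shallowest library of the empty group. Where the low group held 1 to 3 reads in all, the ratio is given with its exact 95% interval, and bounds and intervals cover counting error only. Calls are sensitive to single libraries, with 1509 genes called without ATRA replicate 2 and 1515 without ATRA replicate 3.

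**Figure D1:**
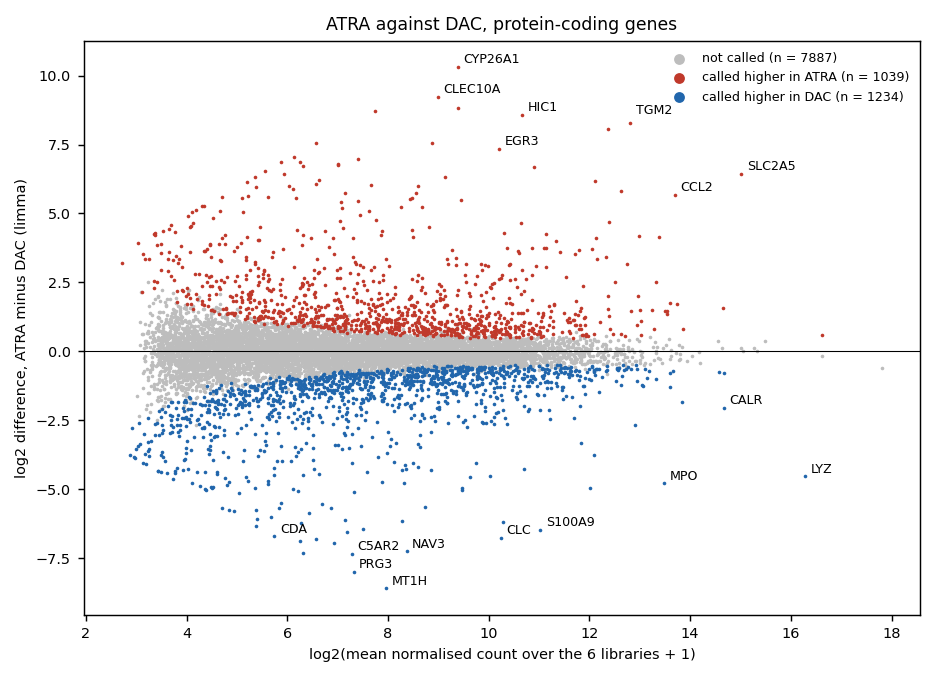
Difference between ATRA and DAC (vertical axis, log2 difference from limma) against mean level (horizontal axis, log2 of the mean normalised count over the 6 libraries plus 1) for 10160 protein-coding genes, 1 point per gene. The 1039 genes called higher in ATRA are red, the 1234 called higher in DAC blue and the others grey, and CYP26A1 has the highest fitted value at 10.32 and MT1H the lowest at -8.60.

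Genes of retinoid metabolism and retinoid response set the drugs apart most strongly at the upper end. Of 36 listed genes, 19 passed the filter, 11 were higher in ATRA, 5 were higher in DAC, and the median difference was 3.06 (2.87 with genes at 0 reads set to their bound). A gene that passed the filter only through the group where it is high had to differ, here and in the lists that follow. CYP26A1, the enzyme that oxidises retinoic acid, was at 829, 1604 and 1559 normalised counts in ATRA and had no read in any DAC library. It was thus at least 283-fold higher in ATRA (adjusted p = 2.03e-11), the lead of all tested genes by fitted difference. Its relative CYP26C1 followed at 17, 58 and 56 in ATRA and 0, 1.57 and 0 in DAC, 105-fold (95% interval 18.6 to 4175) higher in ATRA. DHRS3, which reduces retinaldehyde and so returns retinoid to storage, stood at 7925, 9629.8 and 8728 in ATRA and 159, 130.2 and 86 in DAC (log2 difference 6.16 ± 0.19, adjusted p = 2.04e-11, the value after the sign being its standard error, here and below). The ATRA libraries of these genes lay far above every DAC library.

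The receptor gene RARB, itself a textbook retinoic acid response gene, had 123, 178 and 171 in ATRA and 0, 0 and 2.18 in DAC normalised counts, a ratio of 186-fold (95% interval 51.2 to 1538). The other receptors were not called, with RARA at 41.2 ± 7.69 against 38 ± 22.9 (mean ± SD, ATRA against DAC, n = 3 each), RARG at 24.4 ± 7.93 against 17.3 ± 16.3 and RXRA at 725 ± 119 against 893 ± 199. Of 21 receptors and cofactors, 18 passed the filter, 4 were higher in ATRA and 0 in DAC, a share of 22.2% beside 10.2% of all tested genes. NRIP1, a corepressor that binds liganded receptors, gave 95, 64.7 and 90.3 in ATRA and 2.54, 1.57 and 4.35 in DAC (log2 difference 4.51 ± 0.40, adjusted p = 7.5e-07). The coactivators NCOA3 (2.50) and KAT2B (0.92, not called without ATRA replicate 2 or DAC replicate 2) were the remaining called members.

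CYP26A1 and RARB were the only genes over 2-fold apart whose promoter window held a direct repeat of the receptor's hexamer with 5 bases between, the arrangement that receptor pairs are known to bind. The hexamer was searched as AGGTCA, and also as AGTTCA, as well as GGGTCA, or else GGTTCA, on both strands and in windows of 250 bases before to 50 bases after each annotated start (RefSeq, GRCh38.p14). Such a repeat was found in 31 of 35116 windows of the table (0.0883%) and in 9 of 11737 windows of tested genes. The stretches around both sites are shown because they belong to the leading enzyme and the leading receptor, with the repeat in capitals. That of CYP26A1 lies on the minus strand, 90 bases before the start, at chr10:93073797-93073825, and that of RARB on the plus strand, 53 bases before the start, at chr3:25428204-25428232. Both are printed along the plus strand, and both overlap an exon of another transcript of the same gene.
CYP26A1: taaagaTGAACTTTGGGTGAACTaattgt
RARB: gggtagGGTTCACCGAAAGTTCActcgca
A match is a description of the letters and no measurement of binding. Other genes of the group have no such repeat in a window of the table, or no window at all. Among all genes over 2-fold apart, 566 of 733 higher in ATRA and 658 of 854 higher in DAC had a window. A repeat with 2 bases between, also searched, was in 1 window of the former and 0 of the latter. It was in 4 of 11737 windows of tested genes.

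Further genes of the group changed as strongly. TGM2, a transglutaminase that crosslinks proteins, lay at 15975, 13182 and 13910.3 in ATRA and 40.7, 50.2 and 45.7 in DAC (log2 difference 8.27 ± 0.14, adjusted p = 7.68e-14). HIC1, a zinc finger repressor and tumor suppressor, had 3088, 3423 and 3204 in ATRA and 10.2, 4.7 and 8.71 in DAC (log2 difference 8.57 ± 0.23, adjusted p = 5.71e-12). CD38, the ectoenzyme that splits NAD and a classical surface marker of the retinoid answer, stood at 5994, 6669 and 5977 in ATRA and 525, 508 and 566 in DAC (3.54). In none of the 3 did a DAC library come near an ATRA library. PLAAT4 (26.9, 33.5 and 42.6, no read in DAC, at least 7.3-fold) and the uridine phosphorylase UPP1 (124 ± 31.6 against 14.7 ± 6.16) were also higher in ATRA. The members higher in DAC included enzymes that make rather than degrade the ligand. RDH10, which oxidises retinol, had 391, 266 and 198 in ATRA and 807, 761 and 853 in DAC (-1.55), DHRS9 had 31.4, 31.3 and 22.6 in ATRA and 71.2, 113 and 146 in DAC (-1.87), and ALDH1A3, which makes retinoic acid, had 0.896, 2.23 and 0 in ATRA and 31.8, 22 and 29.4 in DAC (-3.96). FABP5, a fatty acid carrier that also binds retinoic acid, followed at -1.73. CEBPE, a granulocyte transcription factor that retinoic acid is known to induce in promyelocytic cells, was higher in DAC here, at 94.1, 96 and 99.5 in ATRA and 1814, 1598 and 1469 in DAC (log2 difference -4.06 ± 0.15, adjusted p = 1.06e-10).

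**Figure D2:**
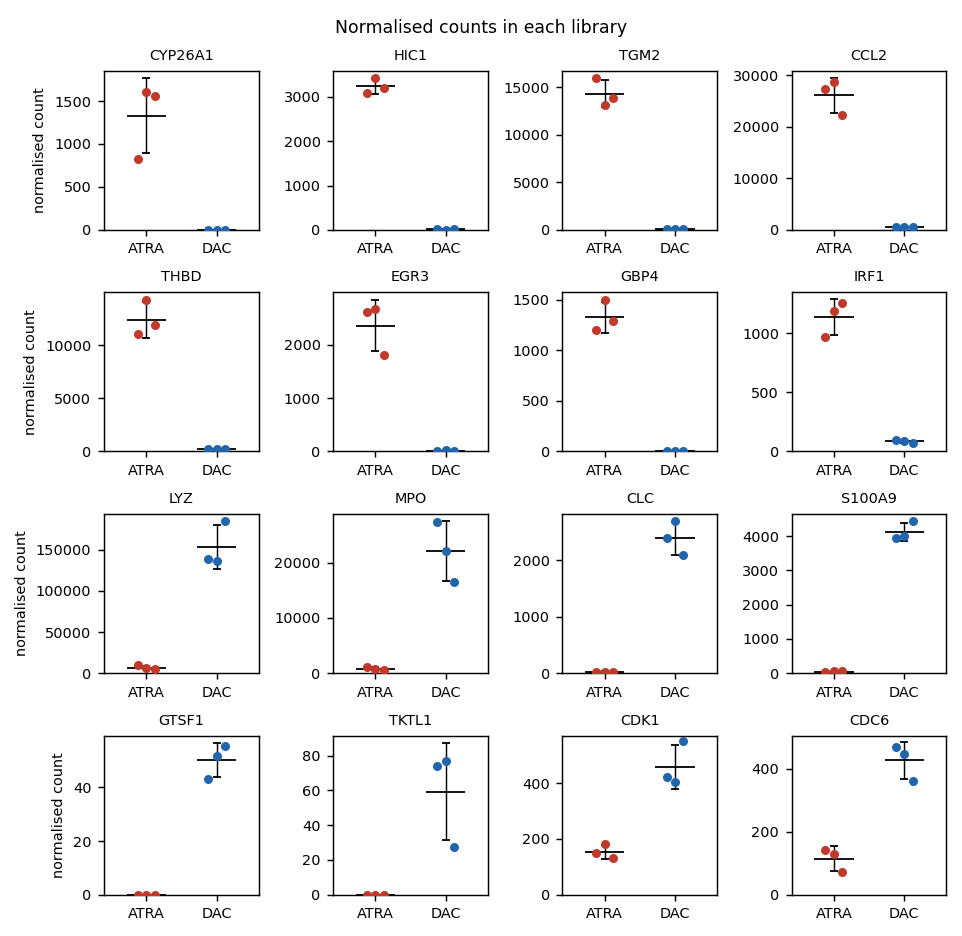
Normalised counts (vertical axes, linear and starting at 0) of 16 genes in each of the 3 ATRA (red) and 3 DAC (blue) libraries, with the mean as a horizontal line and the SD as error bars. The groups do not overlap in any of the 16 genes, and CYP26A1 in DAC and GTSF1 and TKTL1 in ATRA are at 0 in all 3 libraries.

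Many interferon-related genes were higher in ATRA. Of 17 tested genes around IRF1 and the guanylate binding proteins, 8 were higher in ATRA and 0 in DAC, with a median of 0.68. IRF1, the transcription factor that interferon gamma induces, was at 970.3, 1189.9 and 1257 in ATRA and 98, 91 and 74 in DAC (log2 difference 3.69 ± 0.17, adjusted p = 1e-09). GBP4, a GTPase of cell-autonomous defence, reached 1199, 1499 and 1286 in ATRA and 5.09, 3.14 and 0 in DAC (log2 difference 8.82 ± 0.48, adjusted p = 5.54e-09). GBP3, GBP5 and GBP2 followed with 2.44, 2.07 and 1.40, and SOCS3, a feedback inhibitor of JAK kinases, with 3.61.

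Of 48 genes that type I interferon induces in most cells, 36 passed the filter, 19 were higher in ATRA and 0 in DAC, and the median was 0.83. The share of 52.8% stands beside 10.2% of all tested genes, and 12 members were called without ATRA replicate 2. OAS3, which makes the messenger that activates RNase L, had 195, 164 and 161 in ATRA and 14, 14.1 and 21.8 in DAC (log2 difference 3.33 ± 0.26, adjusted p = 2.26e-07). RSAD2, an antiviral enzyme, had 137, 119.8 and 125 in ATRA and 17.8, 34.5 and 44.6 in DAC (2.03), IFIT3, which helps to sequester foreign RNA, had 58.2, 55.1 and 63.5 in ATRA and 12.7, 20.4 and 8.71 in DAC (2.08), and IFI44L had 21.5, 21.6 and 34.3 in ATRA and 0, 0 and 5.44 in DAC (3.81). Their DAC libraries were low but mostly above 0. Several strong members of the class were not called, among them ISG15 (79.1 ± 5.51 against 73.4 ± 13.8), BST2 (1946 ± 77.6 against 1485 ± 198) and EIF2AK2 (514 ± 90.7 against 438 ± 64.3), and HERC5 had the lowest difference (17.9 ± 7.89 against 40.5 ± 7.77).

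The core of the interferon response element, sought on either strand, was in 12 of 21 promoter windows (57.1%) of the called members, of which 17 of 19 had a window, and in 3.03% of the windows of all tested genes. A pair of these sites is printed along the plus strand with the core in capitals, for OAS3 at chr12:112938325-112938346 and for IFIT3 at chr10:89327835-89327856, where it lies on the minus strand.
OAS3: agaaacGAAACTGAAAgcaggg
IFIT3: gttaggTTTCATTTTCctcctc
The cores start 143 and 156 bases before the annotated starts. The list was defined by its response to interferon, so the element is a feature of its members whatever the drug.

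Among 15 tested sensors of nucleic acids and their adaptors, 3 were higher in ATRA (20%, beside 10.2% of all tested genes) and 1 in DAC (6.67%, beside 12.1%). SAMHD1, which hydrolyses deoxynucleotides and also inactivates the active form of several nucleoside drugs, was at 2129.6, 1942 and 2029 in ATRA and 338, 319.9 and 327 in DAC (log2 difference 2.63 ± 0.13, adjusted p = 1.91e-09). DDX58, the RNA sensor RIG-I, was at 109, 135 and 122 in ATRA and 21.6, 34.5 and 53.3 in DAC (log2 difference 1.80 ± 0.30, adjusted p = 0.000327). IFIH1, the sensor MDA5, lay at 50.2, 47.6 and 53.5 in ATRA and 49.6, 36.1 and 44.6 in DAC and overlapped, with an interval of -0.33 to 0.77. The adaptor MAVS had 139, 135 and 153 in ATRA and 92.9, 95.7 and 95.8 in DAC without overlap, but missed the threshold (adjusted p = 0.0288). TLR8, an endosomal receptor for RNA, was the member higher in DAC (3.58, 0 and 2.51 in ATRA and 25.4, 28.2 and 29.4 in DAC, log2 difference -3.50).

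All 5 tested genes of class II presentation, of 15 listed, were higher in ATRA, with a median of 2.67. CIITA, the class II transactivator, had 159, 142 and 169.7 in ATRA and 26.7, 32.9 and 15.2 in DAC (log2 difference 2.67 ± 0.28, adjusted p = 5.21e-06), and CD74, the invariant chain, had 452, 346 and 360.3 in ATRA and 118, 143 and 77.3 in DAC (1.80). HLA-DRB1 (3.30) and HLA-DRB5 (2.69) are near-identical copies whose reads cannot be assigned with certainty. Class I presentation was mixed, with 4 of 14 higher in ATRA (28.6%, beside 10.2% of all tested genes) and 2 in DAC (14.3%, beside 12.1%). These counts were 2 and 1 without ATRA replicate 2, and 1 in DAC without ATRA replicate 3 or DAC replicate 1. The immunoproteasome subunit PSMB10 (1.41) and the trimming peptidase ERAP2 (1.43) were higher in ATRA. CALR, a chaperone of the endoplasmic reticulum, was higher in DAC, at 12936, 9472 and 8372 in ATRA and 41323, 36372 and 47394 in DAC (log2 difference -2.04 ± 0.17, adjusted p = 4.58e-07).

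Granule proteins of neutrophils, eosinophils and monocytes were the clearest group higher in DAC. Of 32 listed genes, 20 passed the filter, 14 were higher in DAC (70%, beside 12.1% of all tested genes), 2 in ATRA, and the median was -2.87. LYZ, lysozyme, was at 9402, 5774 and 5282 in ATRA and 138676, 136550.0 and 184635 in DAC (log2 difference -4.52 ± 0.20, adjusted p = 7.7e-10). MPO, the peroxidase of azurophil granules, was at 1059, 776 and 580.2 in ATRA and 27376, 22174 and 16548 in DAC (log2 difference -4.79 ± 0.21, adjusted p = 6.69e-10). CTSG, the protease cathepsin G, was at 329, 267 and 199.8 in ATRA and 8498, 7049 and 8522 in DAC (log2 difference -4.94 ± 0.17, adjusted p = 6.75e-11). Every DAC library exceeded every ATRA library by a wide margin in these 3 genes. ELANE, neutrophil elastase, had only 8.96, 2.98 and 6.69 in ATRA and 15.3, 25.1 and 17.4 in DAC and missed the threshold (adjusted p = 0.0198).

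Genes best known from eosinophils formed the steepest end of the group. CLC, the Charcot-Leyden crystal protein, had 26, 26.8 and 13.4 in ATRA and 2393, 2693 and 2102 in DAC (log2 difference -6.75 ± 0.24, adjusted p = 6.75e-11). PRG3, a homologue of the major basic protein, had 0.896, 0 and 0 in ATRA and 281, 332 and 335 in DAC, a ratio of 1157-fold (95% interval 207 to 45743) in favour of DAC. PRG2, the major basic protein itself, followed at 50.2, 39.4 and 30.1 in ATRA and 1019, 1054 and 2032 in DAC (-5.02), EPX, the eosinophil peroxidase, at 87.1 ± 20.7 against 1982 ± 304, and RNASE2 at 618 ± 197 against 8049.8 ± 828. The members higher in ATRA were CEACAM8 (10.8, 15.6 and 16.7, no read in DAC, at least 3.05-fold) and MMP9 (604 ± 82.7 against 379 ± 74.8), and the latter was not called without any of ATRA replicate 1, 2 or 3 or DAC replicate 2 or 3. SRGN, the proteoglycan that holds granule contents, was not called, at 183049 ± 41477 against 278773 ± 54059.

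S100 proteins, small calcium-binding proteins of which several mark inflammatory monocytes, moved the same way. Of 10 tested members 7 were higher in DAC and 0 in ATRA, with a median of -1.28. S100A9 was at 41.2, 47.6 and 48.5 in ATRA and 3933, 3999 and 4425 in DAC (log2 difference -6.46 ± 0.15, adjusted p = 8.66e-13), its partner S100A8 at 3.58, 1.49 and 6.69 in ATRA and 204, 274 and 208 in DAC (log2 difference -5.68 ± 0.39, adjusted p = 4.91e-08) and S100P at 16.1, 18.6 and 12.5 in ATRA and 888, 866 and 737 in DAC (-5.64). S100A12 had no read in ATRA and 28, 26.7 and 18.5 in DAC, at least 9.07-fold.

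**Figure D3:**
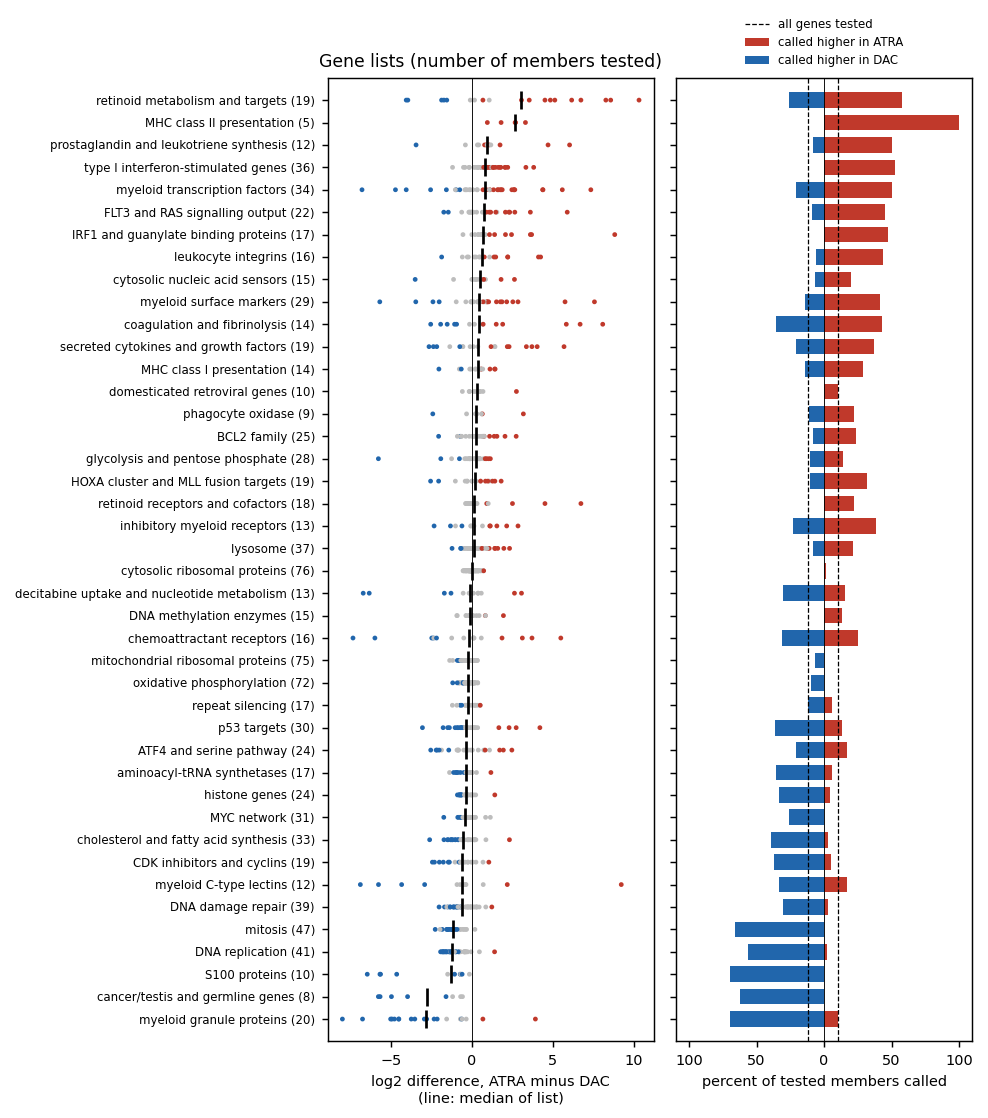
Left, log2 differences (ATRA minus DAC) of the tested members of 42 gene lists, 1 point per gene, red where called higher in ATRA, blue where called higher in DAC and grey otherwise, with the list median as a black line. Right, percent of tested members called in each direction, with dashed lines at 10.2% and 12.1% for all tested genes, where retinoid metabolism and targets stands at the top (median 3.06) and myeloid granule proteins at the bottom (-2.87).

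Some pattern recognition and complement receptors were also higher in DAC. Of 12 tested C-type lectins, 4 were higher in DAC (33.3%, beside 12.1% of all tested genes) and 2 in ATRA (16.7%, beside 10.2%). The latter fell to 1 without ATRA replicate 1, 2 or 3 or DAC replicate 2 or 3. CLEC12A, an inhibitory receptor of granulocytes and leukemic blasts, had 0, 0 and 0.836 in ATRA and 109, 130.2 and 210.1 in DAC, 565-fold (95% interval 101 to 22378) higher in DAC. CLEC5A was at 39.4, 50.2 and 77.3 in DAC and had no read in ATRA, at least 20.7-fold. CLEC10A, a galactose-binding lectin of macrophages and dendritic cells, was the opposite extreme with 975, 872 and 1200.5 in ATRA and 3.82, 0 and 0 in DAC, 789-fold (95% interval 269.9 to 3829) higher in ATRA. C5AR2, a receptor of the complement fragment C5a, had 2.69, 0 and 0.836 in ATRA and 307, 287 and 327 in DAC (log2 difference -7.34 ± 0.43, adjusted p = 1.05e-08). C5AR1, the other receptor of C5a, had 0, 0 and 2.51 in ATRA and 125, 64.3 and 109 in DAC, 124-fold (95% interval 42 to 607) higher in DAC. C3AR1 followed at -2.48 and the chemokine receptor CXCR4 at -2.38.

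Chemokine receptors of monocytes went the other way. CCR1 was at 8526, 7617 and 7360.2 in ATRA and 579, 488 and 753 in DAC (log2 difference 3.71 ± 0.16, adjusted p = 4.61e-10) and CCR2 at 3524 ± 53.4 against 409 ± 57.5 (3.11). In all, 4 of 16 chemoattractant receptors were higher in ATRA and 5 in DAC, with a median of -0.21 that hides both directions. Among integrins and their ligands, 7 of 16 were higher in ATRA and 1 in DAC. ICAM1, the ligand of the beta2 integrins, had 4387, 4715 and 3749 in ATRA and 251, 210.1 and 214 in DAC (log2 difference 4.24 ± 0.14, adjusted p = 4.91e-11), and ITGAX, the CD11c chain, had 967, 1153 and 1176 in ATRA and 215, 239.9 and 255 in DAC (2.21). ITGAM, the CD11b chain, stood at 57.3 ± 8.63 against 26.8 ± 7.2 and was not called, while SELPLG, the selectin ligand, was higher in DAC (-1.87).

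Surface markers were also called in both directions. Of 29 tested, 12 were higher in ATRA (41.4%, beside 10.2% of all tested genes) and 4 in DAC (13.8%, near the 12.1% of all). The former were 9 without ATRA replicate 1 or 3, 8 without ATRA replicate 2, 11 without DAC replicate 1 and 10 without DAC replicate 2. KIT, the stem cell factor receptor, had 536, 899.7 and 786 in ATRA and 11.4, 25.1 and 6.53 in DAC (log2 difference 5.75 ± 0.36, adjusted p = 2.43e-08). CD1D, which presents lipids, had 168, 195 and 205 in ATRA and no read in DAC (at least 40.2-fold), and CD40 (2.53), CD80 (1.86, not called without ATRA replicate 1 or 3) and CD83 (1.76, not called without ATRA replicate 2), which serve antigen presentation, were higher in ATRA too. ANPEP, the aminopeptidase CD13, had 60.9, 61.8 and 71.1 in ATRA and 773, 735 and 662 in DAC (log2 difference -3.47 ± 0.17, adjusted p = 1.46e-09). FCN1, a ficolin of classical monocytes, had 4.48, 0 and 0.836 in ATRA and 106, 108 and 118 in DAC (-5.69), and FCGR1A, the high-affinity IgG receptor, had 409 ± 62.9 against 2164 ± 269 (-2.41). FLT3, CD4, CD86, FCGR2A and LY86 were shown to be close. Of the inhibitory receptors, 5 of 13 were higher in ATRA, led by FCGR2B (2.85), and 3 in DAC, led by PILRA (-2.34), though 1 in DAC without ATRA replicate 3 or DAC replicate 2.

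The phagocyte oxidase was split between its subunits. CYBB, the catalytic membrane subunit, was higher in DAC at 1209, 930.2 and 988 in ATRA and 5225, 4949 and 6551 in DAC (log2 difference -2.42 ± 0.15, adjusted p = 1.99e-08), and NCF1, the cytosolic organiser p47phox, higher in ATRA at 10546, 12858 and 13666 in ATRA and 1439, 1385 and 1256 in DAC (log2 difference 3.18 ± 0.14, adjusted p = 4.75e-10), with the reservation that NCF1 has near-identical pseudogenes. CYBA was higher in ATRA (0.64, not called without ATRA replicate 3), and the other 6 of 9 subunits were not called.

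Transcription factors of the myeloid lineage leaned towards ATRA, with 17 of 34 higher there and 7 higher in DAC (median 0.79). The early growth response factors EGR3 (2609, 2656 and 1799 in ATRA and 7.63, 25.1 and 12 in DAC, log2 difference 7.34 ± 0.32, adjusted p = 4.98e-10), EGR2 (90.5, 122 and 71.1 in ATRA and 2.54, 0 and 1.09 in DAC, 74.7-fold (95% interval 25.4 to 364) higher) and EGR1 (597, 877 and 625 in ATRA and 126, 135 and 76.2 in DAC, 2.65) were much higher in ATRA. So were IRF4 (138 ± 22.7 against 6.63 ± 4.65, 4.39), CEBPB (1872 ± 333 against 338 ± 64.8, 2.47) and KLF4 (199.9 ± 27.3 against 65.4 ± 19.3, 1.63). Higher in DAC were ZBTB16, GATA2, CEBPE, MYB, RUNX1, CEBPA and GFI1, of which RUNX1 was called in the leave-outs of ATRA replicate 3 and DAC replicate 1 but in none of the others, and GFI1 was not called without ATRA replicate 2 or 3. ZBTB16, the repressor PLZF, had 1.79, 0.744 and 0 in ATRA and 193, 174 and 192 in DAC, 228-fold (95% interval 77.6 to 1112) higher in DAC. GATA2, a factor of stem cells and of mast cells, basophils and eosinophils, had 19.7, 26 and 7.52 in ATRA and 580.1, 370.1 and 405 in DAC (log2 difference -4.72 ± 0.36, adjusted p = 1.5e-07). MYB had 86, 70.7 and 38.5 in ATRA and 318, 358 and 433 in DAC (log2 difference -2.55 ± 0.26, adjusted p = 3.81e-06). CEBPA, the master factor of granulocytes and monocytes, was at 6063 ± 324 against 12099 ± 2520.0 (-0.98), while SPI1, the factor PU.1, was close (403 ± 35.1 against 385 ± 43.4).

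Most tested genes of the HOXA cluster and others that MLL fusion proteins maintain were not called. Of 19 tested, 6 were higher in ATRA (31.6%, beside 10.2% of all tested genes) and 2 in DAC (10.5%, beside 12.1%). Those in ATRA were 3 without ATRA replicate 2 and also 3 without ATRA replicate 3. The differences ran from -2.55 (MYB, given above) to 1.81, with a median of 0.21. MEIS1, the cofactor of HOXA9, had 661, 598 and 577 in ATRA and 214, 279 and 269.9 in DAC (log2 difference 1.27 ± 0.16, adjusted p = 2.56e-05), HOXA6 had 84.9 ± 11.8 against 31 ± 2.41 (1.42) and RUNX2 66.1 ± 9.22 against 18.6 ± 5.25 (1.81), whereas BCL2 was higher in DAC at 162, 127 and 115 in ATRA and 419.8, 615 and 666 in DAC (log2 difference -2.06 ± 0.20, adjusted p = 2.57e-06).

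Several genes of secreted factors were called. CCL2, which draws monocytes to a site, was at 27313, 28630.4 and 22279.5 in ATRA and 461, 509.7 and 539.9 in DAC (log2 difference 5.69 ± 0.14, adjusted p = 1.15e-12). CXCL8, which draws neutrophils, was at 7884, 9548 and 7481 in ATRA and 621, 794 and 1049 in DAC (log2 difference 3.36 ± 0.18, adjusted p = 3.36e-09). CSF1, the macrophage growth factor, had 111, 149.6 and 72.7 in ATRA and 6.36, 7.84 and 7.62 in DAC (3.71), PDGFA had 79.6 ± 38.4 against 4.17 ± 2.67 (4.03) and IL1B 173 ± 35.7 against 75.9 ± 16 (1.18, not called without ATRA replicate 2). In all, 7 of 19 tested were higher in ATRA and 4 in DAC, the latter CXCL2, IL1RN, CCL23 and TNFSF13B (2 without ATRA replicate 2 or DAC replicate 2, and 1 without DAC replicate 1). TNFSF13B was not called in any of these 6 leave-outs, CCL23 not without ATRA replicate 2 or DAC replicate 1 or 2, and CXCL2 not without DAC replicate 1. Eicosanoid enzymes were higher in ATRA for 6 of 12 and in DAC for 1. PTGES, which makes prostaglandin E2, had 399, 428 and 372 in ATRA and 6.36, 3.14 and 6.53 in DAC (log2 difference 6.03 ± 0.29, adjusted p = 1.24e-09). ALOX12, a lipoxygenase, had 11439, 10471 and 8845 in ATRA and 447, 359 and 373 in DAC (log2 difference 4.70 ± 0.14, adjusted p = 2.03e-11). The cyclooxygenase PTGS2 had 282 ± 89.3 against 82.5 ± 16.6 (1.74). LTC4S, which makes the cysteinyl leukotriene C4, was the member higher in DAC (3.58, 8.19 and 18.4 in ATRA and 122, 127 and 66.4 in DAC, -3.45).

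Genes of coagulation showed very large differences. THBD, thrombomodulin, which turns thrombin into an anticoagulant, was at 11008, 14268 and 11854 in ATRA and 223, 213 and 211 in DAC (log2 difference 5.83 ± 0.14, adjusted p = 8.66e-13). THBS1, thrombospondin, was at 4294, 3548 and 3527 in ATRA and 25.4, 48.6 and 37 in DAC (log2 difference 6.68 ± 0.21, adjusted p = 2.04e-11). The lowest ATRA library was far above the highest DAC library in both. F13A1, the clot-stabilising transglutaminase chain, was higher in DAC at 321, 243 and 256 in ATRA and 1524, 1554 and 1687 in DAC (log2 difference -2.55 ± 0.15, adjusted p = 1.13e-08). F3, tissue factor, was not called (306 ± 60 against 191 ± 25.8). The list held 6 called genes higher in ATRA and 5 higher in DAC of 14 tested, the latter 3 without ATRA replicate 3.

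Several feedback genes of RAS and FLT3 signalling were higher in ATRA. Of 22 tested output genes, 10 were higher in ATRA and 2, MYC and CCND2, in DAC, with a median of 0.77. The phosphatases DUSP4 (135, 138 and 132 in ATRA and 1.27, 1.57 and 1.09 in DAC, 106-fold (95% interval 35.9 to 513) higher), DUSP6 (1752 ± 319 against 356 ± 35.9, 2.28) and DUSP5 (615, 791 and 635 in ATRA and 156, 113 and 134 in DAC, 2.33), which switch off MAP kinases, and the inhibitor SPRY2 (453 ± 24.8 against 108 ± 16.4, 2.07) were among them, while the receptor FLT3 was close. The kinase PIM1, at 17577 ± 1055 against 6356 ± 811 (1.47), was higher in ATRA too.

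Most tested genes of DNA replication and mitosis were higher in DAC. Of 41 tested replication genes, 23 were higher in DAC (56.1%) and 1 in ATRA, with a median of -1.23. Without ATRA replicate 3, 17 were higher in DAC and the median was -0.92. CDC6, which loads the replicative helicase, was at 143, 131 and 71.1 in ATRA and 471, 449 and 360.3 in DAC (log2 difference -1.93 ± 0.24, adjusted p = 2.48e-05). CDT1 was at 304 ± 65.1 against 1044 ± 192 (-1.79), MCM2 at 1571 ± 439 against 4053 ± 627 (-1.40) and PCNA at 521 ± 61.1 against 1411 ± 326 (-1.42). MCM7 was the member higher in ATRA (85.7 ± 15.8 against 32.6 ± 9.83) and was not called without ATRA replicate 2 or without ATRA replicate 3. Of 47 tested mitotic genes, 31 were higher in DAC (66%, and 21 genes without ATRA replicate 3) and 0 in ATRA, with a median of -1.18. CDK1, the mitotic kinase, had 149, 182 and 132 in ATRA and 421, 405 and 549.7 in DAC (log2 difference -1.57 ± 0.18, adjusted p = 1.45e-05). PTTG1, securin, had 96.8, 93.8 and 51.8 in ATRA and 281, 278 and 281 in DAC (log2 difference -1.83 ± 0.23, adjusted p = 3.12e-05). The proliferation marker MKI67 had 116 ± 4.66 against 247 ± 23.6 (-1.08). The differences were mostly 2-fold to 4-fold, far smaller than those of granule or retinoid genes. ATRA replicate 3 was the lowest library for both lists, at -0.84 and -0.89 (mean log2 value of the members relative to their 6-library mean) against -0.27 and -0.37 in ATRA replicate 1. With bulk RNA, fewer cycling cells and less of these transcripts per cell cannot be told apart.

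**Figure D4:**
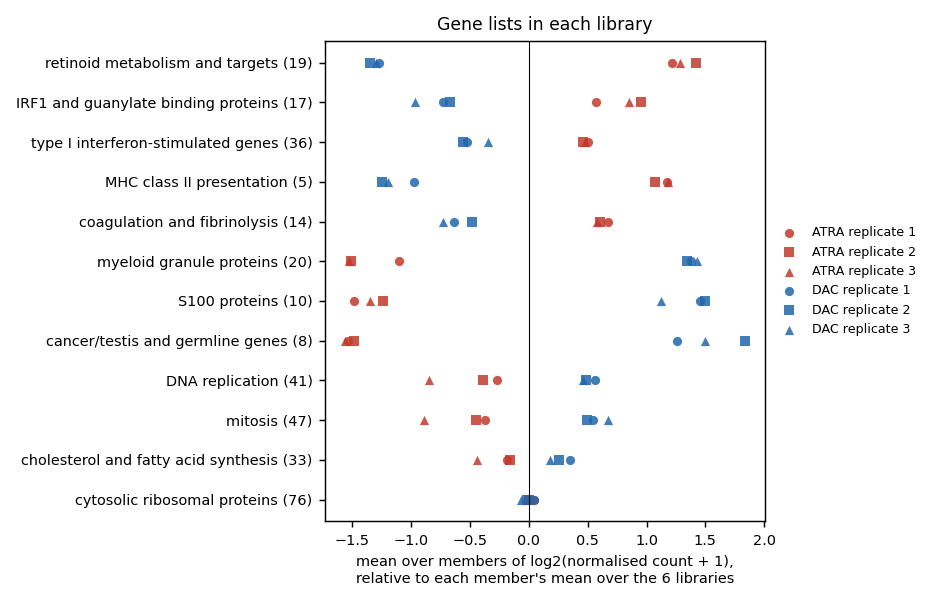
Mean over the tested members of 12 gene lists of log2(normalised count + 1), relative to each member's mean over the 6 libraries (horizontal axis), for each ATRA (red) and DAC (blue) library, with shapes for replicates 1 to 3. The drugs separate in every list drawn except the cytosolic ribosomal proteins, and ATRA replicate 3 lies lowest for DNA replication (-0.84) and mitosis (-0.89).

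Regulators of the G1 phase followed, with 7 of 19 higher in DAC and 1 in ATRA. E2F1, the factor that drives S-phase genes, had 258, 185 and 119.5 in ATRA and 650.1, 615 and 570.4 in DAC (log2 difference -1.77 ± 0.23, adjusted p = 3.39e-05), and cyclin E2 (CCNE2) had 12.9 ± 5.24 against 53.4 ± 12.3 (-2.01). The inhibitor CDKN2C was higher in ATRA (425 ± 48 against 212 ± 71.1) but not called without ATRA replicate 2 or 3, and CDKN1B was close (1290.1 ± 121 against 1524 ± 92.6). MYC was at 15.2, 18.6 and 25.1 in ATRA and 66.2, 65.9 and 67.5 in DAC (log2 difference -1.74 ± 0.29, adjusted p = 0.000314). The other members of the MYC network higher in DAC, such as the nucleolar methyltransferase FBL (-0.82) and the spermidine synthase SRM (-0.87, not called without ATRA replicate 2 or 3 or DAC replicate 1), differed by less than 2-fold. In all 8 of 31 were called, all in DAC (25.8%, beside 12.1% of all tested genes). This count fell to 2 without ATRA replicate 2, 2 without ATRA replicate 3 and, without DAC replicate 1, 4 in DAC beside 1, MLX, in ATRA.

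Histone genes depended on single libraries. Of 24 tested, 1 was higher in ATRA and 8 in DAC, the latter 0 without ATRA replicate 3, 2 without DAC replicate 1, 4 without DAC replicate 2, 5 without ATRA replicate 2 and 14 without DAC replicate 3. H3C2 gave 9057, 10614 and 7640.2 in ATRA and 18799.6, 16816 and 12039 in DAC (-0.79, called without ATRA replicate 2 or DAC replicate 3 but not without any other library). H1-5 gave 20515, 19687 and 14531 in ATRA and 30084, 28383 and 32571 in DAC (-0.75, not called without ATRA replicate 3 or DAC replicate 1). Histone genes are near-identical copies, so single members are uncertain.

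DNA damage genes were higher in DAC in part. Of 39 tested repair genes, 12 were higher in DAC (30.8%, beside 12.1% of all tested genes, and 8 genes without ATRA replicate 3). In ATRA it was 1 (2.56%, beside 10.2%), POLB (995 ± 112 against 423 ± 35.9, 1.23). BRCA2, which acts in the repair of broken ends, had 63.6, 46.1 and 41 in ATRA and 169, 210.1 and 241 in DAC (log2 difference -2.03 ± 0.23, adjusted p = 1.06e-05). FANCE of the Fanconi core complex had 194 ± 41.6 against 622 ± 58.6 (-1.69), and XRCC2 229.8 ± 57.6 against 572 ± 60.9 (-1.34). Of 30 p53 targets 11 were higher in DAC (36.7%, beside 12.1% of all tested genes) and 4 in ATRA (13.3%, beside 10.2%). CDKN1A, the p21 inhibitor, had 35.8, 90.8 and 76.9 in ATRA and 204, 172 and 133 in DAC (-1.39, not called without DAC replicate 1 or 2), MDM2, which degrades p53, had 2389, 2503 and 2017 in ATRA and 4198, 4441 and 5608 in DAC (-1.04), DDB2, a sensor of DNA lesions, had 237, 317 and 233 in ATRA and 725, 681 and 799 in DAC (-1.49), and PHLDA3 had 58.1 ± 8.47 against 213 ± 85.7 (-1.78). The count in DAC was 5 without ATRA replicate 2 or DAC replicate 2 and 6 without ATRA replicate 3 or DAC replicate 1. The members higher in ATRA were BTG2, an antiproliferative gene (15552, 17986 and 12605 in ATRA and 804, 754 and 940.5 in DAC, log2 difference 4.20 ± 0.15, adjusted p = 7.75e-11), PMAIP1, the killer protein NOXA (1546, 1638 and 1300.0 in ATRA and 156, 215 and 329.8 in DAC, log2 difference 2.73 ± 0.22, adjusted p = 3.15e-07), GDF15 (2.30) and PLK3 (1.66). Genes of this list can answer to other pathways as well, and the part of p53 in either direction was not tested.

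In the BCL2 family, 6 of 25 were higher in ATRA (24%, beside 10.2% of all tested genes). BCL2 and BAX were the 2 higher in DAC (8%, beside 12.1%, and 1 gene without ATRA replicate 2 or 3 or DAC replicate 1 or 2). MCL1, a survival protein, had 1421, 1399 and 1586 in ATRA and 429, 383 and 273 in DAC (log2 difference 2.04 ± 0.17, adjusted p = 4.24e-07), and BMF, a killer protein, had 96.3 ± 18.3 against 32.4 ± 7.11 (1.54). 

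Genes of DNA methylation were called higher in ATRA at a share near that of all tested genes. DNMT1, the maintenance methyltransferase that DAC traps, was at 44.8, 51.3 and 28.4 in ATRA and 89, 84.7 and 59.9 in DAC and not called (interval -1.52 to -0.30), and neither was UHRF1, its guide, at 43 ± 4.51 against 49.8 ± 22.1. Neither gene was shown to be close, and DNMT1 was called higher in DAC without DAC replicate 3. Of 15 tested writers, readers and erasers of methylation, 2 were called higher in ATRA (13.3%, beside 10.2% of all tested genes). In DAC 0 were called higher, beside 12.1%. DNMT3A, a de novo methyltransferase, had 477, 579 and 596 in ATRA and 145, 169 and 115 in DAC (log2 difference 1.95 ± 0.18, adjusted p = 1.4e-06). TET1, a demethylating dioxygenase, had 226, 223 and 179.7 in ATRA and 102, 105 and 150.2 in DAC (log2 difference 0.83 ± 0.21, adjusted p = 0.00652), a call that was lost without any of ATRA replicate 1, 2 or 3 or DAC replicate 1 or 2.

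Some genes of the uptake and breakdown of DAC were called. CDA, cytidine deaminase, which inactivates DAC, had 127, 94.1 and 93.6 in DAC and no read in ATRA, at least 39.1-fold. SLC28A3, a concentrative nucleoside transporter, likewise had 87.8, 94.1 and 62 in DAC and no read in ATRA, at least 30.2-fold. SLC29A1, the main equilibrative transporter, had 18.3 ± 4.82 against 62.3 ± 17.2 (-1.70), and SAMHD1 was higher in ATRA as given above. DCK, the activating kinase, is not among the tested genes. Of 13 tested, 4 were higher in DAC (30.8%, beside 12.1% of all tested genes) and 2 in ATRA (15.4%, beside 10.2%).

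Some germline genes were transcribed in DAC, at low levels. Of 48 listed genes only 8 passed the filter, 5 of them higher in DAC (62.5%, beside 12.1% of all tested genes) and 0 in ATRA, with a median of -2.79. Of the 40 others, 26 were at 0 in all 6 libraries and none exceeded 4.70 normalised counts. TKTL1, a transketolase relative, had 73.8, 76.8 and 27.2 in DAC and no read in ATRA, at least 22.1-fold, and GTSF1, a cofactor of PIWI proteins, had 43.3, 51.8 and 55.5 and no read in ATRA, at least 18.7-fold. The helicase gene TDRD9, also of the PIWI pathway, had 3.58, 0 and 2.51 in ATRA and 68.7, 84.7 and 81.6 in DAC (-4.97), the antigen gene MAGEB2 had 6.27, 8.19 and 3.34 in ATRA and 87.8, 109.8 and 113 in DAC (log2 difference -3.97 ± 0.35, adjusted p = 7.93e-07), and the meiotic gene TEX15 had 20.6, 14.9 and 17.6 in ATRA and 50.9, 65.9 and 50.1 in DAC (-1.60). TKTL1, GTSF1, TDRD9 and MAGEB2 stayed below the level of the filter in every ATRA library. They thus passed only through DAC and had to be higher there, and of the called genes TEX15 alone passed through both groups. The share and the median therefore cannot tell whether germline genes as a class differ between the drugs. DAC replicate 3 was the lowest DAC library for TKTL1 and, by a small margin, for TEX15, but not for the others named.

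The 250 bases before the starts of TKTL1 (chrX:154295545-154295794, plus strand) and GTSF1 (chr12:54473603-54473852, minus strand, printed 5′ to 3′ on that strand) are shown because CG pairs, in capitals, are where the DNA methyltransferases act. They hold 13 and 8 CG pairs (RefSeq starts, GRCh38.p14). The longer windows of 300 bases, available for 8272 tested genes, held a median of 26.
TKTL1: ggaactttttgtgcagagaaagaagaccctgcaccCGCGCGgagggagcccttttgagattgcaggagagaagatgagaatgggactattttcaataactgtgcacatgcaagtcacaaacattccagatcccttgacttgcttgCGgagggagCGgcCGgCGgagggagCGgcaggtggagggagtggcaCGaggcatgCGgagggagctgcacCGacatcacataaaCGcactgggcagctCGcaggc
GTSF1: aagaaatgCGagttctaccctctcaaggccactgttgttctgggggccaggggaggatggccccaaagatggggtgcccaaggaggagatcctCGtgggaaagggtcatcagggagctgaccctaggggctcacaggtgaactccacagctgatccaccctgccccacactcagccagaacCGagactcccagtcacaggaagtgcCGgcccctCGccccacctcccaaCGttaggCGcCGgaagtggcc
No methylation was measured in these libraries. A comparison of the CG content of promoters between the genes over 2-fold higher in either drug was void, because 566 of 733 and 658 of 854 of them had a window, under 80%.

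Genes that silence repeats and genes derived from retroviruses were called at shares no higher than those of all tested genes. Of 17 silencing genes 2, CBX3 (-0.72) and TRIM28 (-0.63), were higher in DAC (11.8%, beside 12.1% of all tested genes). In ATRA it was 1, MPHOSPH8 (0.51), or 5.88% beside 10.2%. Without ATRA replicate 1, 2 or 3 or DAC replicate 2 none of the 3 was called, and without DAC replicate 1 only 1 was. ERV3-1, an envelope gene of an endogenous retrovirus, was at 196, 259 and 271 in ATRA and 219, 301 and 297 in DAC and shown to be close (interval -0.58 to 0.24). ZNF117, which shares a locus with it, was at 34.9, 32.7 and 47.7 in ATRA and 28, 43.9 and 59.9 in DAC (-0.83 to 0.54), and the groups overlapped in both. PNMA2, derived from a retrotransposon, was the only call among 10 genes derived from retroviruses (10%, beside 10.2% of all tested genes). It was higher in ATRA (14.3, 24.6 and 24.2 in ATRA and 5.09, 1.57 and 1.09 in DAC) and was not called without ATRA replicate 2 or 3.

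Part of the genes of sterol and fatty acid synthesis was higher in DAC. Of 33 tested genes of sterol and fatty acid synthesis and transport, 13 were higher in DAC (39.4%, beside 12.1% of all tested genes) and 1 in ATRA (3.03%, beside 10.2%). The former were 8 without ATRA replicate 2, 6 without ATRA replicate 3 and 8 without DAC replicate 1. FADS1, a desaturase of polyunsaturated fatty acids, had 306, 323 and 212 in ATRA and 1641, 1631 and 1796 in DAC (log2 difference -2.61 ± 0.17, adjusted p = 2.89e-08). CYP51A1, which demethylates lanosterol, had 843, 763 and 522 in ATRA and 2247, 2134 and 2541 in DAC (log2 difference -1.73 ± 0.17, adjusted p = 2.66e-06). ABCA1, which exports cholesterol, was the member higher in ATRA at 1834, 2859.7 and 2832 in ATRA and 481, 505 and 492 in DAC (log2 difference 2.32 ± 0.17, adjusted p = 1.08e-07), and CYP27A1, which hydroxylates cholesterol, was at 17572, 20903 and 21923 in ATRA and 1296, 1154 and 950.3 in DAC (log2 difference 4.15 ± 0.15, adjusted p = 6.75e-11).

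SLC2A5, the fructose transporter, was higher in ATRA at 58517, 67649 and 70552 in ATRA and 769.6, 799.8 and 682 in DAC (log2 difference 6.45 ± 0.13, adjusted p = 3.63e-13). Of 28 genes of glycolysis and the pentose phosphate pathway, 4 were higher in ATRA (14.3%, and 2 genes without ATRA replicate 2) and 3 in DAC (10.7%, and 5 genes without DAC replicate 3). These shares lie near the 10.2% and 12.1% of all tested genes. ENO1 and PFKL, enzymes of glycolysis, were close. The serine pathway gene PSAT1 (211, 130.2 and 100.3 in ATRA and 1013, 725 and 757 in DAC, log2 difference -2.54 ± 0.24, adjusted p = 1.29e-06) and the ATF4 targets CHAC1 (-2.21) and TRIB3 (-2.02) were higher in DAC, and DDIT4 (1.94) and PPP1R15A (1.71) in ATRA, in all 5 and 4 of 24. These shares, 20.8% in DAC and 16.7% in ATRA, stand beside 12.1% and 10.2% of all tested genes. ATF4 itself was not called (898 ± 58.2 against 692 ± 131). Among aminoacyl-tRNA synthetases 6 of 17 were higher in DAC (3 without ATRA replicate 3, and 3 without DAC replicate 1), led by GARS1 (-1.13), and WARS1, which interferon gamma is known to induce, was higher in ATRA (1.17).

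Lysosomal genes higher in ATRA outnumbered those higher in DAC. In ATRA 8 of 37 were higher (21.6%, beside 10.2% of all tested genes, and 5 genes without ATRA replicate 2), and 10 were close. CTSB (1449.6, 1874 and 1796 in ATRA and 733, 585 and 579 in DAC, 1.43), CTSH (1.59), CTSD (197, 593 and 585 in ATRA and 154, 141 and 23.9 in DAC, 2.32, not called without ATRA replicate 2 or 3), all cathepsin proteases, and TFEB, the factor that drives lysosomal genes (1.97), were called. The 3 members higher in DAC (8.11%, beside 12.1%) fell to 0 without ATRA replicate 1, 2 or 3 or DAC replicate 1 or 2.

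Cytosolic ribosomal protein genes were mostly close between the drugs. Of 76 cytosolic ribosomal protein genes, 42 were shown to be close, 1, RPS27, was higher in ATRA and the median was -0.01. RPS27 was not called without any 1 of the libraries other than DAC replicate 3. RPL10A stood at 33769, 34257 and 33148 in ATRA and 35018, 31368 and 35079 in DAC (interval -0.29 to 0.28). The count of calls was 0 without ATRA replicate 2 or 3 or DAC replicate 1, and 2 without DAC replicate 2, and without DAC replicate 3 it was 4 higher in ATRA and 3 higher in DAC. Of 75 mitochondrial ribosomal protein genes 5 were higher in DAC and 23 close, and of 72 respiratory chain genes 7 and 28. Their medians were -0.24 and -0.25, and their shares called higher in DAC were 6.67% and 9.72%, beside 12.1% of all tested genes. The calls in DAC were 1 and 2 without ATRA replicate 2 and also without ATRA replicate 3, 2 and 3 without DAC replicate 1 and also without DAC replicate 2, and 9 and 15 without DAC replicate 3. The elongation factor EEF2 (91867, 97175 and 96176 in ATRA and 115661, 97296 and 105392 in DAC) and the mitochondrial MT-CO3 (47067, 41091 and 35002 in ATRA and 37977, 32154 and 52307 in DAC) are further examples of close genes.

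The rule for named genes added further genes with very large differences. In ATRA these were EXOC3L2 (312, 513 and 451, no read in DAC, at least 90.4-fold), ALS2CL (684, 1025 and 1083 in ATRA and 5.09, 17.2 and 0 in DAC, 7.57), CD1A (192, 121 and 100.3, no read in DAC, at least 29.2-fold) and ANGPTL4, an inhibitor of lipoprotein lipase (276, 434 and 294 in ATRA and 1.27, 1.57 and 2.18 in DAC, 6.96). In DAC they were NAV3 (6.27, 2.98 and 1.67 in ATRA and 541, 696 and 728 in DAC, log2 difference -7.26 ± 0.34, adjusted p = 9.37e-10), the scavenger receptor gene STAB1 (3.58, 2.23 and 0.836 in ATRA and 342, 295 and 222 in DAC, -6.56), RHEX (173, 143 and 157, no read in ATRA, at least 58.6-fold) and the metallothionein genes MT1H (0, 0 and 0.836 in ATRA and 569.9, 624 and 298 in DAC, 1748-fold (95% interval 313 to 69109) higher) and MT1M (1.79, 1.49 and 0 in ATRA and 267, 256 and 194 in DAC, -6.96). Metallothioneins bind zinc and copper, and their genes are similar enough that reads can be shared. By difference of means the actin-binding TMSB10 (40906, 38362 and 36436 in ATRA and 12355, 11042 and 15540.5 in DAC, log2 difference 1.58 ± 0.15, adjusted p = 1.54e-06) and the ferritin chain FTL (116490.0, 119543 and 126959 in ATRA and 78169, 70349 and 91332 in DAC, log2 difference 0.61 ± 0.16, adjusted p = 0.00817, not called without any 1 of the libraries other than DAC replicate 3) were added in ATRA, and the intermediate filament gene VIM (5023, 7688 and 6807 in ATRA and 25099, 21890.3 and 21226 in DAC, log2 difference -1.82 ± 0.16, adjusted p = 7.64e-07) and the tubulin gene TUBA1B (20732, 20399.6 and 16348 in ATRA and 38949, 32686 and 28322 in DAC, log2 difference -0.79 ± 0.16, adjusted p = 0.0013, not called without DAC replicate 1) in DAC.

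Of the other genes that the study discusses, IL7R, the interleukin 7 receptor, was higher in ATRA at 511, 270.1 and 311 in ATRA and 109, 174 and 216 in DAC (log2 difference 1.12 ± 0.27, adjusted p = 0.0047, not called without ATRA replicate 1 or 3 or DAC replicate 1), and CXCR1, an interleukin 8 receptor, was not called at 4.48, 9.67 and 9.2 in ATRA and 24.2, 23.5 and 12 in DAC (adjusted p = 0.0485).

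Some genes outside the protein-coding class were also called. Of 1855 long non-coding RNA genes tested, 180 were higher in ATRA and 174 in DAC (19.1% in all). The largest differences in this class were AC090617.3 (125, 134 and 86.1 in ATRA and no read in DAC, at least 24.5-fold), AC254633.1 (256, 306 and 285 in ATRA and 0, 3.14 and 1.09 in DAC, 222-fold (95% interval 75.6 to 1077) higher) and AC090617.5 (199, 208 and 97.8 in ATRA and 3.82, 0 and 0 in DAC, 132-fold (95% interval 45 to 643) higher) on the ATRA side. On the DAC side they were LINC02212 (72.5, 83.1 and 55.5 in DAC and no read in ATRA, at least 26.2-fold), AC104823.1 (0, 0.744 and 0 in ATRA and 57.2, 69 and 75.1 in DAC, 247-fold (95% interval 43.6 to 9802) higher) and, annotated as a gene segment rather than a non-coding RNA, TRDC, the constant segment of the T cell receptor delta chain (0.896, 0 and 0 in ATRA and 188, 179 and 247 in DAC, 763-fold (95% interval 136 to 30208) higher in DAC). Of 53 entries annotated as miRNA tested 7 were higher in ATRA and 0 in DAC, of 172 snoRNA genes 3 and 4, and of 40 snRNA genes 4 and 1. Among all 2395 tested symbols outside the protein-coding class, 412 were called in either direction. Beside these counts stand 22.4% of tested protein-coding genes called, 10.2% higher in ATRA and 12.1% higher in DAC. The counts are not read as a result about any of these classes.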

How the data were processed

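The authors sequenced rRNA-depleted, strand-specific libraries of total RNA and deposited a signal table: htseq-count read counts per Ensembl transcript after STAR alignment to hg38, divided by DESeq2 size factors (versions and strand setting not given in the sources used here). Every value was a whole number of reads times 1 constant per library (tolerance 0.001). Its 100502 rows were summed into 46639 symbols and matched to GENCODE v44 (88.9% of rows). Depth differed between groups, 4671214 to 6954604 reads in DAC and 8363702 to 10685348 in ATRA, which limits low counts most in DAC. log2(normalised count + 1) of protein-coding genes was fitted with limma 3.58.1 (R 4.3.3, trended variances, 6 libraries, groups from the sample titles) and checked on simulated data. The simulated libraries were independent and alike in spread, so the check does not cover the uneven spread of these replicates. The recovered reads were also tested with edgeR 4.0.16 and with DESeq2 1.42.0, and alternatives tried other scalings, filters and pseudocounts or left out each library. Pairs of replicates differed beyond sampling noise. Named genes were the 12 largest called differences in each direction (mean of at least 20, no overlap), the 6 largest differences of means, up to 4 called genes per list, 14 genes the study discusses and the 3 largest non-coding genes in each direction. Others named beside them were chosen after their values were seen. Members and lists were chosen with earlier results of these data known. Some genes are not reported here.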

Additional observations from a re-analysis of the deposited data

How the results depend on the processing

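No called gene that is named changed direction under any of the 20 alternatives in which every gene was refitted, while ZNF117, MT-CO3 and RPL10A, which were not called and differed little, did. Of the 42 list medians, 14 changed sign in 25 values, among them cytosolic ribosomal proteins and DNA methylation enzymes. Of 188 named genes 176 were called, and 143 of these stayed called under all alternatives. Among the named genes, 119 of 3622 values missed the threshold although the gene was called, and 1 passed it although the gene was not (ELANE, fitted with all 12 libraries). Every gene called both in the main analysis and under an alternative had the same direction in both. The total of 2273 calls ran from 1509 to 2603 when 1 library was left out, lowest without ATRA replicate 2 (1515 without ATRA replicate 3). Calls higher in ATRA ran from 679 to 1225 and higher in DAC from 793 to 1378. The number of close genes ran from 1142 to 2070, with 1258 without DAC replicate 2, and calls over all symbols, 2620 in the main analysis, from 1724 to 2882, with 1731 without ATRA replicate 2. At an adjusted p under 0.05, 1567 genes were higher in ATRA and 3977 symbols were called. Among genes with 1 transcript row, of which 2740 were tested, 953 were called, 398 higher in ATRA and 555 in DAC, with 584 over 2-fold and 786 close. Fewer genes were tested there by construction. DESeq2, edgeR, total-count or TMM scaling and thinning to equal depth moved the share of calls higher in ATRA between 43.2 and 49.5%. With the replicate block 2098 genes were called, 2041 of them shared with the main analysis. Same-numbered libraries correlated at -0.13, 0.018 and -0.199 in their deviations from the group means. With 3 libraries per group, these values cannot tell whether equal numbers share more than a name. The comparison of promoter composition was void and has no alternative. Depth limits low genes, and DAC replicate 2 is the shallowest library.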

Other observations

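The lists here were drawn up after values had been seen, so their counts describe these libraries and support nothing. All 7 tested metallothionein genes were higher in DAC, with a median of -2.65. MT1X had 318, 307 and 278 in ATRA and 2074, 1968 and 1657 in DAC (-2.65), MT2A had 112, 149.6 and 127 in ATRA and 837, 859 and 353 in DAC (-2.29), and MT1G had 41.2, 32.7 and 41 in ATRA and 807, 834 and 402 in DAC (-4.05). Since these copies are similar, their values are not independent of each other.

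Of 12 tested genes of eosinophils and basophils, 11 were higher in DAC, with a median of -4.13. Besides those given above, PTGDR2, the prostaglandin D2 receptor of these cells, had 96.7, 73.7 and 75.1 in DAC and 0, 0.744 and 0 in ATRA, 299.7-fold (95% interval 53.1 to 11898) higher in DAC, and IL5RA, the interleukin 5 receptor chain, had 0.896, 0.744 and 0 in ATRA and 17.8, 18.8 and 13.1 in DAC, 29.7-fold (95% interval 7.66 to 254) higher in DAC. CCR3, the eotaxin receptor, was the exception and higher in ATRA (58.2, 80.4 and 102 in ATRA and 0, 0 and 1.09 in DAC, 189-fold (95% interval 33.7 to 7490.1)). Of 23 immediate early genes, which many stimuli induce within minutes, 20 were higher in ATRA and 0 in DAC, with a median of 2.04. FOS had 2487, 2976 and 1612 in ATRA and 391, 372 and 372 in DAC (2.59), FOSB 447 ± 124 against 21 ± 8 (4.37), DUSP1 1284 ± 309 against 182 ± 11.8 (2.78), and CCN2 60, 90.8 and 46 in ATRA and 0, 1.57 and 0 in DAC, 156-fold (95% interval 27.8 to 6199.5) higher in ATRA.

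The 3 tested CD1 genes, whose products present lipids, were all higher in ATRA. CD1C had 173, 111 and 73.6 there and 1.27, 0 and 0 in DAC, 275-fold (95% interval 49.2 to 10906) higher in ATRA. Of 13 targets of the liver X receptors, 5 were higher in ATRA and 0 in DAC, but 1 was higher in DAC without DAC replicate 3. APOC1 had 129, 191 and 202 in ATRA and 63.6, 76.8 and 66.4 in DAC (1.30), while SREBF1 was close (214 ± 46.6 against 195 ± 35.5).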
